A study of Mus musculus with 8 samples.

Results

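Genes of megakaryocytes and platelets were followed across 8 arrays of sorted mouse forelimb cells. The group was put together from 30 genes for granule proteins, surface receptors, adhesion molecules, enzymes and cytoskeletal proteins of the platelet lineage, and every probe that the platform annotation gives to one of these symbols was taken. It holds 45 of the 45281 probes on the array and covers 27 of the 30 genes, since no probe is named here for Gp1ba, Bin2 or Ptgs1. Forelimbs were dissected at E12.5 from embryos of a mixed C57BL/6J;129 background, dissociated, and sorted for green fluorescence from the Bapx1 (Nkx3-2) locus, and 4 samples carry the label Bapx1 WT (WTBapx1) and 4 the label Bapx1 HOMO (HomoBapx1). All embryos therefore carried EGFP at Bapx1. In the WT samples it was translated from an internal ribosome entry site placed into the 3' UTR of an intact gene, written in the study as the heterozygous allele Bapx1+/tm2.Tlu, and in the HOMO samples it followed the start codon on both alleles (Bapx1tm4.Tlu/tm4.Tlu), which makes the gene null. How the reporter was built and in how many copies it was present differ between the genotypes, so a difference in what was sorted cannot be told apart from genotype. The study calls the replicates biological, each from its own sorted population, but does not give the number of embryos behind a sample.

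Megakaryocytes are the large marrow and fetal liver cells that shed platelets, and in the embryo they arise from blood progenitors next to the red cell lineage. Platelets carry granules filled with chemokines and clotting proteins, hold glycoproteins on their surface that bind von Willebrand factor, collagen and fibrinogen, and answer thrombin and nucleotides through dedicated receptors. A beta tubulin of their own forms the ring that keeps their disc shape. They have no nucleus, but take RNA over from the megakaryocyte, so their transcripts can be found wherever blood is present. In such a bulk sample, fewer cells of a type and less RNA per cell cannot be told apart.

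Each array detected 19840 to 20879 probes (43.8% to 46.1%), and 20593 probes that were detected on at least 4 of the 8 arrays were compared. Values are normalized log2 intensities. On this scale the level of an undetected probe lies near 4.5 but can be higher, as for the macrophage gene C1qc, undetected at 5.10 on null replicate 4. A change is the mean of the arrays labelled null minus the mean of those labelled wildtype, so that a negative value is lower in the null. Bapx1 itself was measured by 2 probes. They were at background on all 4 arrays labelled wildtype (means 4.49 and 4.47) and detected on all 4 labelled null (7.87 and 7.57; limma, adjusted p = 8.8e-08 and 3.3e-07), at least 3.38-fold and at least 2.87-fold higher. The transcript these probes read was thus higher on the arrays labelled null. Where the probes lie relative to the 2 EGFP insertions was not analysed here, and the labels were not checked by these probes. Each direction given rests on the labels alone, and "wildtype" and "null" stand for arrays so labelled. Null replicates 2 and 3 stood apart from the other arrays: Xist, the RNA of the inactive X chromosome, lay at 8.99 and 6.57 there and between 10.57 and 12.02 on the other 6, while the mean of 3 Y-linked genes lay at 9.24 and 9.39 there and between 8.03 and 8.59 elsewhere. Of these 3, Eif2s3y and Kdm5d were higher on all 4 null arrays than on any wildtype array. Eif2s3y passed in limma (0.83 ± 0.18, adjusted p = 0.037), while Kdm5d (0.98, adjusted p = 0.075) and Uty (0.25, adjusted p = 0.63) did not. Of the limb mesenchyme markers 7 of 7 measured were kept, among them Sox9 (14.02 and 14.04 in wildtype and null), Pdgfra (13.62 and 13.79) and Col2a1 (12.55 and 12.87), and none passed the test.

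The platelet genes were far lower on the arrays labelled null. Of the 27 genes with a probe, 26 were bright enough to be tested, and 23 of them fell, none rose and 3 missed the threshold (limma, Benjamini-Hochberg adjusted p from 0.00081 to 0.039). Over all probes tested, 2.12% were called lower, 1.85% higher and 3.97% in either direction. The platelet genes had been chosen with earlier results of these data known, so no test of the set was run. The median change of the 26 genes was -1.77 on the log2 scale, against 0.01 for all probes tested, and the fitted fold of the 20 fallen genes detected on a null array ran from 2.35 for the transcription factor gene Nfe2 to 11.7 for the granule chemokine gene Ppbp. In all 23, the 4 null arrays lay below the 4 wildtype arrays, which holds for 6.39% of all probes tested, and the gap between the lowest wildtype and the highest null array ran from 0.49 to 2.23. The filter on dim probes bears on these counts, because a gene detected on 4 wildtype arrays alone was kept. Gp6, Rgs18 and Fermt3 were such genes, and with them at their bound the median was -1.74. Of the 13 genes detected on all 8 arrays, 12 fell. With the between-array scaling that the study's methods name, 9 of the 26 genes passed at a median of -1.72, and with the mean of the Y-linked genes as a covariate 14 passed at a median of -1.37. On the processed values that the authors deposited, 22 passed at a median of -1.28.

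**Figure D1:**
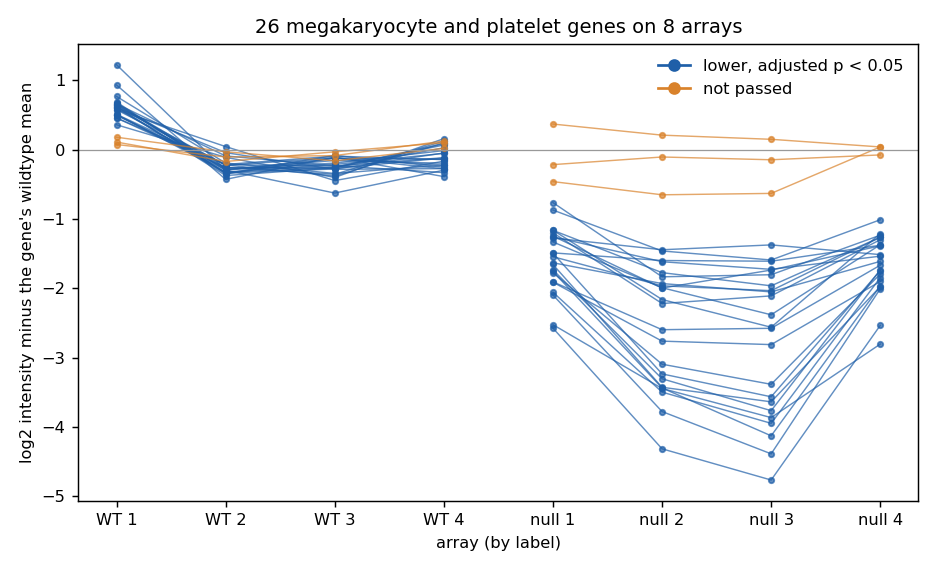
Each line is 1 of the 26 measured megakaryocyte and platelet genes; the y axis gives its normalized log2 intensity on each array minus its mean over the wildtype arrays, and the x axis the 8 arrays by label. The 23 genes called lower (blue) lie below all their wildtype values on every null array, with null 2 and 3 the lowest pair for 22 of the 23, whereas the 3 that did not pass (orange) stay much closer to their wildtype mean.

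Most promoters of these genes could be looked at for the letters read by the blood transcription factors of the GATA and ETS families, which act together at many megakaryocyte genes. RefSeq windows (GRCm38.p6) of 250 bases before to 50 after the gene start were matched for 24 of the 30 genes, and the 250 bases before the start were searched on both strands. Itgb3, Rgs18, Gng11, Nfe2, Bin2 and Cd226 were not matched. For the GATA family the letters TGATAA, or in their place AGATAA, were found in 9 of the 24, against 17.0% of 27025 promoters. For the ETS family the letters CGGAAG, or in their place AGGAAG, were found in 14 of the 24, against 39.0%. Both kinds stood in 4 of the 24, against 5.57% of all promoters, and in these genes they share no base. The 24 include genes that were not tested or did not pass. Of the 21 matched genes that fell, 7 held a GATA match, 12 an ETS match and 3 both. A match is a description of the sequence and no evidence of binding. The 6 windows printed here show where the letters stand in genes that fell, and were chosen after the values were seen. They are read 5′ to 3′ on the strand of the gene, and the capitals mark the match. TTATCT is the second GATA form on the opposite strand, and CTTCCT likewise the second ETS form.
F2rl2, GATA match 95 bases before the start, with an ETS match directly before it, chr13:95696813-95696842, plus strand: ggggtgaggaagAGATAAaagggatatggc
Gp6, GATA match 144 bases before the start, chr7:4397871-4397900, minus strand: gctggcaagaagAGATAAgtggtggcttta
Gp5, GATA match 93 bases before the start, chr16:30310857-30310886, minus strand: tttcttgactttTTATCTggtaaggtcttt
Mpig6b, GATA match 88 bases before the start, chr17:35066255-35066284, minus strand: tcacactcgctcTTATCTgagcccccagtc
Itga2b, ETS match 43 bases before the start, chr11:102469909-102469938, minus strand: gctttcctggagAGGAAGgggaagcagtga
Pf4, ETS match 9 bases before the start, chr5:90772414-90772434, plus strand: ttctgcagagcaCTTCCTcat

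All 5 granule genes were measured and fell, with a median of -2.19, and Ppbp among them had the largest fitted change of the 26 genes. Ppbp, which encodes the chemokine precursor of neutrophil-activating peptide released from platelet alpha granules, stood at 11.19, 10.23, 10.08 and 10.20 on wildtype arrays 1 to 4 and at 7.85, 6.11, 5.66 and 7.89 on null arrays 1 to 4. Its change was -3.55 ± 0.51 (SE, adjusted p = 0.0054), and its second probe gave -3.71 (adjusted p = 0.0031). Pf4, the gene of platelet factor 4, was at 13.28, 12.43, 12.54 and 12.38 in the wildtype and at 10.56, 8.88, 8.27 and 10.65 in the null. It fell by 3.07 ± 0.51 on the log2 scale (adjusted p = 0.011), an 8.38-fold difference, and was still above background on each null array. For both chemokines null replicates 2 and 3 lay well below null replicates 1 and 4, and no null value reached the wildtype.

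Mmrn1, the gene of the factor V binding protein multimerin 1, stood at 8.21, 7.28, 7.41 and 7.37 in the wildtype and at 5.66, 4.97, 4.99 and 5.90 in the null, where it was above background on 2 arrays (-2.19 ± 0.26, adjusted p = 0.0022). F5, the gene of clotting factor V, was at 7.28, 6.63, 6.39 and 6.40 and at 5.13, 4.71, 4.64 and 5.41 (-1.70 ± 0.23, adjusted p = 0.0041), again detected on 2 null arrays. P-selectin, encoded by Selp, sits in the granule membrane and comes to the surface of activated platelets and endothelium. Selp was at 7.73, 6.21, 5.88 and 6.21 in the wildtype and at 5.25, 4.89, 4.78 and 4.97 in the null, where 1 array detected it (-1.54 ± 0.34, adjusted p = 0.039). Its wildtype spread was the widest of the 23 genes (SD 0.83), with wildtype replicate 1 far above the other 3, and when each array was left out in turn the call was lost 6 of 8 times, at changes between -1.75 and -1.13.

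Among the adhesion receptors, 7 of 8 genes were measured, 5 fell and 2 did not pass. Gp9, Gp1bb and Gp5 encode subunits of the receptor for von Willebrand factor. Gp5 was at 10.02, 9.03, 9.14 and 9.43 in the wildtype and at 7.91, 6.17, 5.84 and 7.66 in the null (-2.51 ± 0.45, adjusted p = 0.016), a call lost without wildtype replicate 4. Gp9 was at 8.17, 7.16, 7.22 and 7.45 and at 6.30, 5.28, 5.39 and 6.20 (-1.71 ± 0.29, adjusted p = 0.012). Gp1bb was at 7.11, 6.58, 6.09 and 6.37 and at 5.29, 4.54, 4.80 and 5.15, with 2 null arrays above background (-1.60 ± 0.23, adjusted p = 0.0054). All 3 subunits thus showed the same separation of the groups, with wildtype replicate 1 on top.

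Itga2b encodes the alpha chain of the platelet fibrinogen receptor, a classical marker of the megakaryocyte lineage. It was at 7.79, 7.32, 7.03 and 7.59 in the wildtype and at 6.10, 5.44, 5.05 and 6.06 in the null (-1.77 ± 0.25, adjusted p = 0.0052), where 3 arrays detected it, and its dimmer probe, at background on all null arrays, gave at least 1.1-fold lower (adjusted p = 0.026). Itgb3, the gene of the beta chain, which many other cells also make, went the other way without passing: it was at 5.20, 4.92, 5.06 and 5.19 in the wildtype, detected on 2 arrays, and at 5.46, 5.30, 5.24 and 5.13 in the null (0.19 ± 0.10, adjusted p = 0.37). The 2 chains of this receptor thus differed in what their probes showed. Gp6, the collagen receptor gene, stood at 7.10, 6.35, 6.21 and 6.11 in the wildtype and was not above background on any null array (4.81, 4.51, 4.39 and 4.83), so that only a bound holds: it was at least 1.67-fold lower under each of 3 background treatments (adjusted p = 0.0019). Clec1b, the gene of the podoplanin receptor, did not pass at 5.75, 5.54, 5.41 and 5.59 against 5.11, 4.92, 4.94 and 5.61 (-0.42 ± 0.15, adjusted p = 0.18), with null replicate 4 inside the wildtype range. It passed without that array, at -0.58.

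The receptors for thrombin and nucleotides all fell. F2rl2 (protease-activated receptor 3, a cofactor for thrombin sensing on mouse platelets) was at 9.03, 8.09, 8.26 and 8.16 in the wildtype and at 5.86, 4.94, 4.52 and 5.58 in the null, where it was above background on 2 arrays. Its change of -3.16 ± 0.30 had the lowest adjusted p of the 23 genes (0.00081). F2rl3 (protease-activated receptor 4, which carries the thrombin signal in mouse platelets) stood at 8.23, 7.26, 7.49 and 7.47 and at 6.45, 5.45, 5.05 and 6.40 (-1.77 ± 0.33, adjusted p = 0.018), a call lost without wildtype replicate 4 or null replicate 2. P2rx1, an ATP-gated channel gene, was at 6.83, 6.11, 6.12 and 6.44 and at 5.61, 4.54, 4.57 and 5.14 (-1.41 ± 0.25, adjusted p = 0.015), a call lost without wildtype replicate 4 as well. Its second probe was at background on all null arrays and at least 1.37-fold lower (adjusted p = 0.0053). The 2 thrombin receptor genes differed in the size of their fall, but this difference was not tested.

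Treml1 and Mpig6b encode surface receptors with an inhibitory signalling motif that are largely limited to megakaryocytes and platelets. Treml1 was at 10.20, 9.45, 9.35 and 9.83 in the wildtype and at 7.95, 6.27, 5.58 and 7.74 in the null (-2.82 ± 0.48, adjusted p = 0.013). Mpig6b was at 9.30, 8.47, 8.54 and 8.88 and at 7.14, 5.37, 5.16 and 6.82 (-2.68 ± 0.43, adjusted p = 0.0093). The null arrays of both genes fell into a higher and a lower pair. Cd226, an adhesion receptor gene shared with lymphocytes, has 4 probes, none of which was above background on any array, so it was not tested.

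Enzymes that turn arachidonic acid into signalling lipids were represented by Alox12 (platelet 12-lipoxygenase) and Tbxas1 (thromboxane synthase, also made by macrophages). Alox12 was at 10.82, 9.90, 10.01 and 10.17 in the wildtype and at 8.49, 6.92, 6.46 and 8.49 in the null (-2.63 ± 0.45, adjusted p = 0.013). Tbxas1 was at 8.51, 7.59, 7.58 and 7.73 and at 5.94, 5.09, 5.04 and 5.95, detected on 3 null arrays (-2.35 ± 0.27, adjusted p = 0.0020). A dimmer probe of Tbxas1 did not pass (-0.60, adjusted p = 0.063).

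The cytoskeletal and signalling genes fell in 5 of 6 cases. Tubb1, the beta tubulin of the platelet ring, stood at 10.99, 10.20, 10.18 and 10.30 in the wildtype and at 8.36, 6.92, 6.47 and 8.57 in the null (-2.84 ± 0.45, adjusted p = 0.0084), whereas its second tested probe, near background, gave -0.18 (adjusted p = 0.38). Plek, the gene of the protein kinase C substrate pleckstrin, was at 10.92, 9.89, 10.15 and 9.98 and at 8.46, 7.14, 6.85 and 8.44 (-2.51 ± 0.39, adjusted p = 0.0081). Lat, an adaptor gene used by platelets and T cells, was at 8.84, 8.04, 8.14 and 8.32 and at 7.17, 6.56, 6.37 and 7.07 (-1.54 ± 0.22, adjusted p = 0.0052). These 3 genes were detected on every array, so their falls are measured on both sides.

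Fermt3 and Rgs18 are shared by platelets and other blood cells, the first as the integrin activator kindlin-3 and the second as a regulator of G protein signalling. Fermt3 was at 6.56, 5.89, 6.01 and 5.96 in the wildtype and at 4.83, 4.66, 4.73 and 4.59 in the null, and Rgs18 at 6.89, 5.53, 5.85 and 5.57 and at 4.47, 4.36, 4.35 and 4.58. Neither was above background on any null array, which leaves bounds of at least 1.45-fold lower for Fermt3 (adjusted p = 0.0011) and at least 1.38-fold lower for Rgs18 (adjusted p = 0.014). Gng11, a G protein gamma subunit gene that is also active outside blood, stood apart from the rest of its group. It was at 6.79, 6.61, 6.63 and 6.84 in the wildtype and at 6.50, 6.61, 6.57 and 6.64 in the null, detected on all 8 arrays (-0.14 ± 0.08, adjusted p = 0.44), and the groups overlapped. Nfe2, the transcription factor gene needed for platelet release, had the smallest fitted fall of the 20 fallen genes detected on a null array, at 7.83, 7.10, 6.94 and 7.42 against 6.45, 5.86, 5.73 and 6.31 (-1.24 ± 0.22, adjusted p = 0.014), although without background correction the change of P2rx1 was smaller (-0.90 against -0.92). The call of Nfe2 was lost without wildtype replicate 4.

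**Figure D2:**
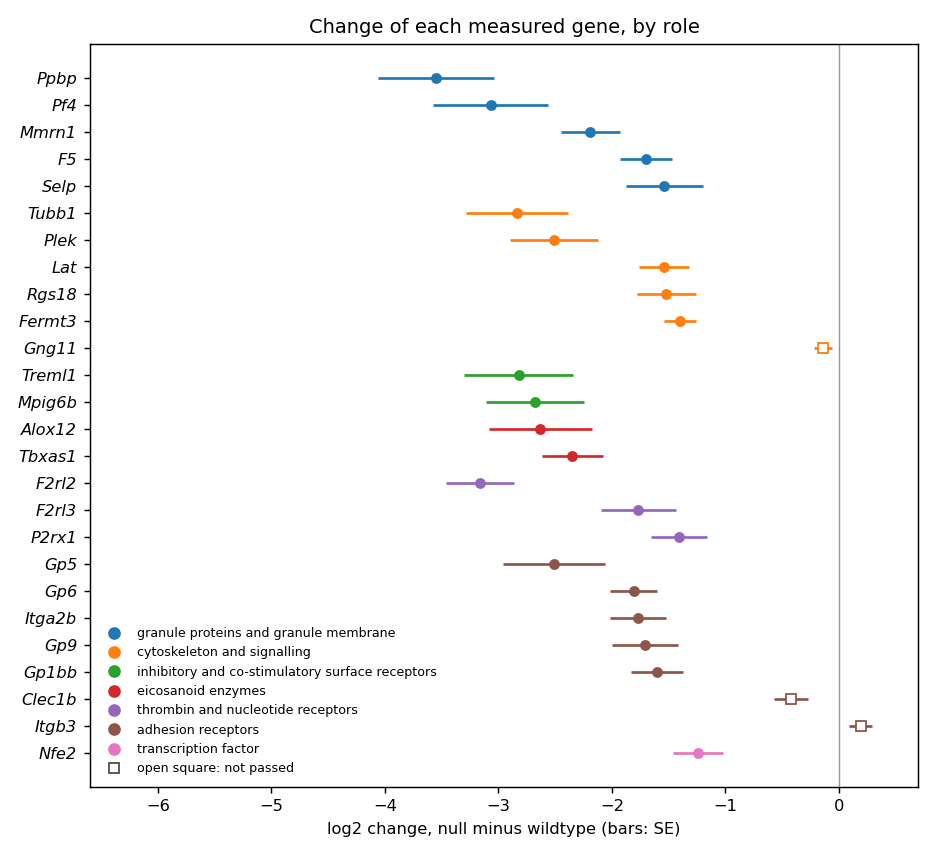
Points give the log2 change, null minus wildtype, of the 26 measured genes (y axis) with bars of 1 SE, coloured by role, and open squares mark genes that did not pass. Every role has fallen genes, from -3.55 for Ppbp to -1.24 for Nfe2, and Gng11, Clec1b and Itgb3 lie between -0.42 and 0.19.

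Probe by probe, 31 of the 45 probes were bright enough to be tested; 26 of these fell and 5 did not pass. The 5 were the single probes of Gng11 and Itgb3, the tested probe of Clec1b, and the dimmer probes of Tubb1 and Tbxas1. Of the 5 genes with more than 1 tested probe, Ppbp, Itga2b and P2rx1 fell by every tested probe.

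**Figure D3:**
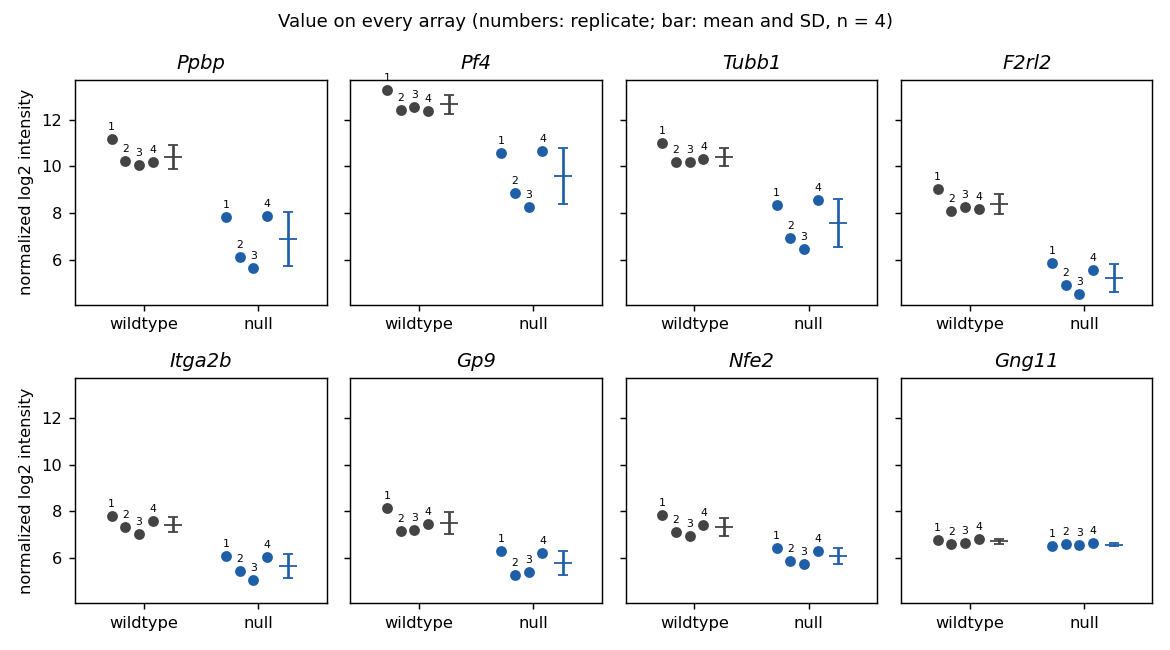
Normalized log2 intensity (y axis) of 8 of the genes on every array, with the replicate number above each point and the mean and SD of 4 arrays to the right. Ppbp, Pf4, Tubb1, F2rl2, Itga2b, Gp9 and Nfe2 separate the groups with wildtype 1 highest and null 2 and 3 lowest, while Gng11 stays between 6.50 and 6.84 on all arrays.

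Within each group some arrays recurred as high or low. Wildtype replicate 1 had the highest wildtype value for 23 of the 23 fallen genes, by 0.47 to 1.63 above the mean of the other 3 wildtype arrays (median 0.83). In the null, replicates 2 and 3 held the lowest pair of values for 22 of the 23 genes. Null replicate 3 was the lowest array for 18 genes, and the highest was null replicate 1 for 15 and null replicate 4 for 8. Relative to the wildtype mean the median over the 23 genes was -1.55, -2.22, -2.56 and -1.62 on null arrays 1 to 4. All 23 genes were above background on each wildtype array, and 20, 14, 12 and 19 of them on null arrays 1 to 4. Replicates 2 and 3 of the null are also the arrays that stood apart for Xist and the Y-linked genes, whose part in the result was not tested. Without null replicates 2 and 3, 20 of the 26 genes fell at a median of -1.42, and Selp, Rgs18 and Nfe2 lost their calls. Without wildtype replicate 1, all 23 calls were kept at a median of -1.58, and without wildtype replicate 4, 18 were kept at -1.81.

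A separate list of 50 other genes of platelet signalling, granule release and megakaryocyte control was measured beside them. Like the platelet genes above, it was chosen with earlier results of these data known. Of 47 with a named probe 37 were tested, and 18 fell, none rose and 19 missed the threshold. The median of the 37 was -0.62. The filter on dim probes bears on these counts too, because Tal1, P2ry12, Tbxa2r, Btk, Prkcq and Unc13d were kept by their wildtype arrays alone. Of the 22 genes detected on all 8 arrays, 7 fell when only such probes were tested. Vwf, the gene of von Willebrand factor, which megakaryocytes and endothelium make, fell from 8.83, 7.96, 7.86 and 8.23 in the wildtype to 6.36, 5.40, 5.20 and 6.36 in the null (-2.39 ± 0.31, adjusted p = 0.0031). The signalling adaptor gene Lcp2 was at -2.11 ± 0.28 (adjusted p = 0.0036, 1 null array above background), the granule proteoglycan gene Srgn at -1.91 ± 0.26 (adjusted p = 0.0040) and the actin regulator gene Was at -1.85 ± 0.25 (adjusted p = 0.0046), each of the last pair detected on 2 null arrays. The kinase gene Btk was at background on all null arrays and at least 1.91-fold lower (adjusted p = 0.00071). Slc35d3, a gene needed for platelet dense granules in mice, was at -1.61 ± 0.18 (adjusted p = 0.0018). Which cells these falls belong to was not tested. Of 12 tested macrophage and leukocyte genes, 11 fell as well (median -1.54).

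Among the 19 that missed the threshold, the thrombin receptor gene F2r was at 13.13 and 13.04 in wildtype and null, the filamin gene Flna at 10.60 and 10.62 and the myosin gene Myh9 at 10.35 and 10.40. These 3 were picked after their values were seen, and genes with a high level on every null array also fell, such as the tetraspanin gene Cd9 (8.08 and 7.42, -0.66 ± 0.12, adjusted p = 0.015). Of the transcription factors of the list, Tal1, also picked afterwards, fell: it was detected on all wildtype arrays and on no null array, at least 1.08-fold lower (adjusted p = 0.0061). Gata2 (0.05, adjusted p = 0.83), Runx1 (0.06, adjusted p = 0.9), Mafg (-0.10, adjusted p = 0.66) and Gfi1b (-0.62, adjusted p = 0.1) did not pass in limma. Fli1 was higher on all null arrays than on any wildtype array without passing (7.03 ± 0.22 against 7.53 ± 0.32, SD, n = 4 each; 0.50 ± 0.17 SE, adjusted p = 0.15). It passed as higher with the Y-linked covariate (0.83, adjusted p = 0.039) and without null replicates 2 and 3 (0.73). Gata1 was detected on 1 wildtype array and no null array, so it was not tested.

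Other blood and vessel markers were read on the same arrays. Of 12 tested macrophage and leukocyte genes 11 fell, led by the lysozyme genes Lyz1 (-2.56 ± 0.16, adjusted p = 7.4e-05) and Lyz2 (-2.54 ± 0.21, adjusted p = 0.00033), with a median of -1.54. Adgre1 (-2.23) and Csf1r (-1.61) were among them, and Aif1 did not pass (-0.41, adjusted p = 0.15 in limma). By its brightest probe Ptprc was at background on every array, and C1qa was above it on 1 wildtype array alone, so neither was tested. The mean of the 12 tested genes lay between 6.57 and 7.10 on the wildtype arrays, highest on replicate 1, and between 5.14 and 5.27 on the null arrays, whereas the mean of the 26 platelet genes lay between 7.68 and 8.48 and at 6.50, 5.63, 5.44 and 6.45 on null arrays 1 to 4. The null replicates thus lay farther apart for the platelet genes than for the macrophage genes, but C1qb, C1qc, Fcgr3 and Tyrobp were at background on every null array, where no spread can be seen, and this difference was not tested. Of 11 tested endothelial genes 3 fell (Esam at -0.93, Sox18 at -0.76 and Cdh5 at -0.43, median of the list -0.35), and Pecam1 was at -0.16 (adjusted p = 0.59). None of the 3 passed with the scaling of the methods or with the Y-linked covariate. Of the 11, 9 had a negative change, while Eng (0.34, adjusted p = 0.079 in limma) and Tek (0.16) went the other way without passing. Eng was higher on all null arrays than on any wildtype array.

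No red cell gene passed the test. The median of the 8 tested erythroid genes was -0.25, and their mean lay between 7.39 and 9.06 in the wildtype and at 8.31, 8.21, 8.37 and 6.80 on null arrays 1 to 4, so that null replicate 4, one of the higher arrays for platelet genes, was the lowest here. The adult beta globin genes Hbb-bt (-1.01 ± 0.32, adjusted p = 0.13) and Hbb-bs (-0.93 ± 0.33, adjusted p = 0.18) were lower on all null arrays, and these 2 had an unadjusted p under 0.05 in limma; by the other settings 0 erythroid genes passed, except 1 with the Y-linked covariate. All 5 lymphocyte markers with a probe, Cd3e, Cd3d, Cd79b, Cd4 and Cd8a, were at background on every array. Of 10 granulocyte and mast cell markers only Prtn3 was bright enough to be tested (0.10, adjusted p = 0.65), and Mpo and Elane were at background on all arrays. The mast cell protease gene Cpa3 was above background on null replicates 2 and 3 alone (6.34 and 6.41, against 4.41 to 5.02 on the other 6 arrays), the same arrays that were lowest for most platelet genes, and its part in the result was not tested. Of 4 tested blood progenitor markers Kit, a receptor gene that other embryonic cells also use, rose by 0.66 ± 0.11 (adjusted p = 0.0091), while Cd34, Myb and Hhex did not pass. What part a different share of blood cells in the sorted samples has in the platelet result was not tested.

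**Figure D4:**
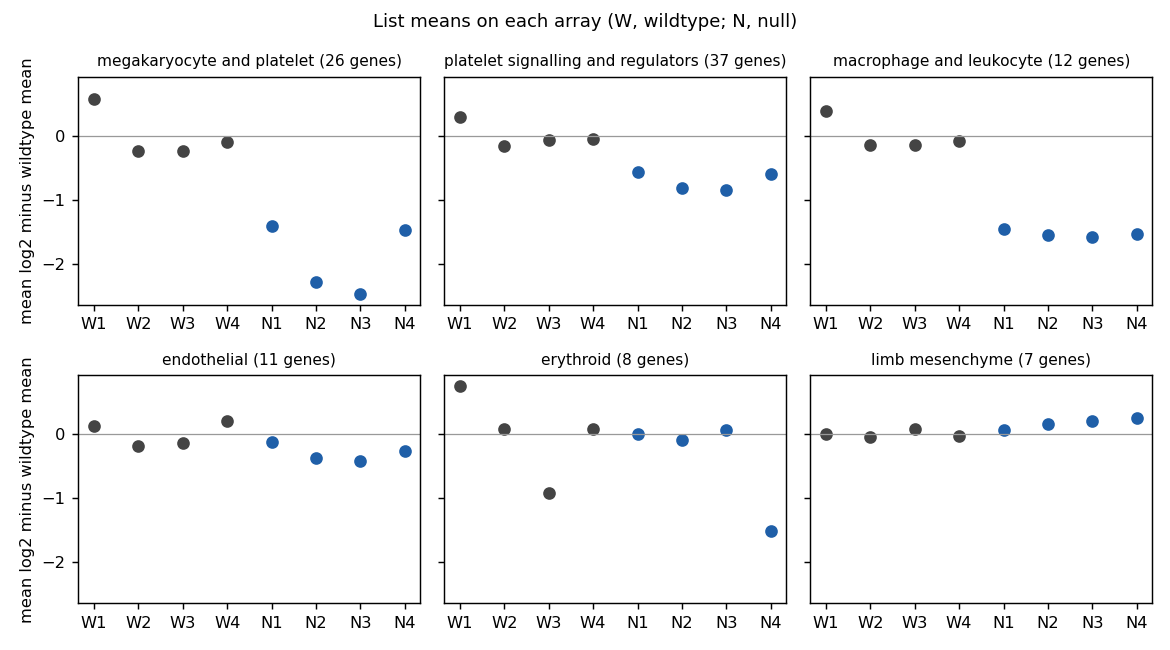
Mean normalized log2 intensity of each list on each array, minus its wildtype mean (y axis), for wildtype (grey) and null (blue) replicates 1 to 4 (x axis), with the number of tested genes above each panel. Platelet means are lower on every null array and lowest on null 2 and 3, macrophage means are low and close together on the null arrays, and erythroid means overlap between the groups.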

How the data were processed

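RNA of 8 sorted forelimb samples was labelled from 25 ng and hybridised to Illumina MouseWG-6 v2 arrays. The authors exported a signal intensity per probe from GenomeStudio, whose version the sources used here do not give. Their methods name background-subtracted data, but the deposited intensity values hold none below 0. Beside it the deposited detection value is a fraction that rises with brightness, and was read as 1 minus the detection p-value. A deposited table of processed log2 values, used as an alternative, equals log2 intensity with each array shifted by its median and each probe centred by the authors on a baseline that stays unknown. Its array medians run from -0.015 to 0.014. Probe names were taken from the platform annotation after the tables had been paired by differences between arrays. Intensities were background-corrected by normexp (offset 16), quantile-normalized and set on a log2 scale in limma 3.58.1 (R 4.3.3). Probes detected (p under 0.05) on 4 or more of the 8 arrays were tested by lmFit and eBayes on the groups of 4, with Benjamini-Hochberg adjustment over all 20593 probes and a threshold of 0.05. A gene is represented by its brightest tested probe. A group at background on all arrays gives a bound, the lowest over 3 background treatments. All measured members are named, and of the other lists those with the largest changes and defining markers, apart from genes said to be picked later. The members and lists were chosen with earlier results of these data known. The steps were tested on simulated data. The number of arrays limits the precision, and each limma p-value sets the group difference against the spread between these samples, moderated across probes.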

Additional observations from a re-analysis of the deposited data

Results flagged for a closer look

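In 4 of the 52 groups of 4 arrays looked at, 1 array lay farther from the other 3 than Dixon's 95% limit for a gap relative to the group's range allows, a distance that chance gives in about 1 in 20 groups. In each case it was wildtype replicate 1, and it was the highest array. For Ppbp the gap was 0.86 of the range (11.19 against 10.08 to 10.23), for Mmrn1 0.86 (8.21 against 7.28 to 7.41), for Tubb1 0.85 (10.99 against 10.18 to 10.30) and for Tbxas1 0.84 (8.51 against 7.58 to 7.73). The genes share the array, so these are not independent. Summed raw intensity of the members was 30800 on this array and 12600 to 16200 on the other wildtype arrays, of macrophage genes 3180 and 1620 to 1980, of erythroid genes 14700 and 3230 to 6550, of endothelial genes 2830 and 1840 to 2200, and of limb mesenchyme genes 44800 and 31000 to 39100.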

How the results depend on the processing

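No member changed direction under any alternative. Scaling by the median absolute deviation, as the methods name it, but after the background correction used here, left 9 of 26 members called, 11 of the signalling list and 115 of all probes, against 23, 18 and 817 in the main setting. The authors' processed values gave 22 members at a median of -1.28, 14 of the signalling list and 333 of all probes. An ordinary t-test on the values normalized here, in place of the ANOVA that the methods name, called 6 members after Benjamini-Hochberg adjustment. At its unadjusted threshold it called 23 (378 of all probes adjusted). The Y-linked mean as a covariate left 14 members, among 1580 probes. Requiring detection on all 8 arrays left fewer genes to test. It gave 12 of 13 members at a median of -2.51 and 7 of 22 genes of the signalling list. Saddle-point background correction with offset 50 moved the median to -1.15, still with 22 members called, and no background correction moved it to -1.28. Leaving out 1 array at a time gave 18 to 23 called members, medians of -1.89 to -1.58 and 17 to 18 of the signalling list. Of other counts, the endothelial genes went from 3 to 0 with the methods' scaling or the Y-linked term, to 1 with the t-test or without null replicates 2 and 3, and to 7 with array weights. The cause of these shifts was not tested.

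Over all tested probes, the deviations of same-numbered arrays from their group means correlated at 0.06, 0.24, -0.18 and -0.26. These correlations cover all probes and not the members, so they cannot decide whether the numbers pair the samples. With the replicate block 23 members were called, at a median of -1.77, with 16 of the signalling list and 434 of all probes.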
